A study of Mus musculus with 2 samples.

Results

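The transcription factor genes Hnf4a, Foxa1, Foxa2, Foxa3, Prox1, Onecut1, Hhex and Tbx3 were described in the mouse fetal liver. They were chosen by symbol, as 8 of the 27998 genes counted, because they are known regulators of hepatoblasts. All 8 were found once in the gene list of both libraries. The data are droplet-based single cell RNA sequencing (scRNA-seq) of 1 wild-type C57BL/6 liver (C57BL/6J in the study's methods) at E12.5, which was dissociated, sorted to remove debris, dead cells and doublets, and processed as 2 technical replicate libraries. Each captured RNA carries a unique molecular identifier (UMI), so that counts are of molecules. The deposited table names the cell type of 10537 kept cells, of which 64 are hepatoblasts (Hepa), 33 in library 1 and 31 in library 2. The other names are endothelial cells (EC), hematopoietic stem and progenitor cells (spelled HPSC there), erythroid-committed progenitors (Ery), erythroblasts (Eryb), primitive erythroid cells (EryP), megakaryocytes (Mk), monocytes and Kupffer cells (Mo/KC) and granulocytes (G). With 1 liver there was no replicate animal, so no test was made, no p-value is given, and agreement between the libraries measures technical spread only.

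Hepatoblasts are the bipotent progenitors of the fetal liver, which give rise to hepatocytes and to the cells that line the bile ducts. FOXA pioneer factors open chromatin in the endoderm from which they arise, HHEX, PROX1, TBX3 and ONECUT1 act as this endoderm buds into the surrounding mesenchyme and grows, and the nuclear receptor HNF4A directs the hepatocyte programme. These factors bind to each other's genes and to those of secreted liver proteins such as albumin and alpha-fetoprotein. HHEX differs from the rest in that it is also known as a factor of early endothelium and of blood progenitors.

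To set the counts beside the DNA from which these genes are read, RefSeq promoter windows on GRCm38.p6 were taken for 7 members, with 11 windows in all, and searched in the 250 bases before each start. Tbx3 had no window. The windows below are shown because Foxa3 and Hnf4a had the highest levels in Hepa, Prox1 had a middle level, and Hhex was the member with higher levels in some other cell types than in Hepa. For Hnf4a and Hhex they stop where the GENCODE gene model begins. They run 5′ to 3′ on the strand of the gene, and capitals mark motif letters found on either strand: TATAAA for the TATA box and ATCAAT for ONECUT factors. Hnf4a lies at chr2:163506607-163506807 (plus strand, 201 bases), Foxa3 at chr7:19023540-19023789 (minus strand), Prox1 at chr1:190170828-190171077 (minus strand) and Hhex at chr19:37434591-37434809 (plus strand, 219 bases).
Hnf4a: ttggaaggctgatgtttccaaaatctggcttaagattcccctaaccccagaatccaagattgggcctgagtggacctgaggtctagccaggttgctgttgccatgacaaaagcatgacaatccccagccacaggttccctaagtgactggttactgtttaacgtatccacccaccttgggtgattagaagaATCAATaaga
Foxa3: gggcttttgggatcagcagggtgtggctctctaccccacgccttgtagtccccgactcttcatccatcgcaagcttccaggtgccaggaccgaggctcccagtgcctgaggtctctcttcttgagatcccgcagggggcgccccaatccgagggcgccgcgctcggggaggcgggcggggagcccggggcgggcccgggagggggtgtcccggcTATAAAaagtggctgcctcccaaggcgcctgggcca
Prox1: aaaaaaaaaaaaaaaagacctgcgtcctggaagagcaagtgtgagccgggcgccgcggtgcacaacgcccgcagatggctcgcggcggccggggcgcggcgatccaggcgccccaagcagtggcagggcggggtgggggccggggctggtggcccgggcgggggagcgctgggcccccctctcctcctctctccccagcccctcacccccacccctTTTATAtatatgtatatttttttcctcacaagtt
Hhex: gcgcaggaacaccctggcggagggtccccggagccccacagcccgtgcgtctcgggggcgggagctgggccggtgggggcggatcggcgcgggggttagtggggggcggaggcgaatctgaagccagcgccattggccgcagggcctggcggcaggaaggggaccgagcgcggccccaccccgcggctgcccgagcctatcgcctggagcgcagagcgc

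The printed Foxa3 and Prox1 windows each held TATAAA letters just before the RefSeq start. In Foxa3 they were on the strand of the gene and in Prox1 on the opposite strand. The GENCODE gene model of Prox1 begins farther on, at 190170714, whereas its window ends at 190170828. At any place in the 250 bases and on either strand, the TATAAA letters occur in 12.4% of all 32851 windows. The other Prox1 window held no match. The first Hnf4a window held ATCAAT, found in 6.72% of windows, and next to it AGATAA, the GATA letters, found in 9.99%, of which part falls in the gene model and is not printed. A Foxa2 window also held ATCAAT. Another Foxa2 window, which lies inside the GENCODE gene model, held TATAAA and AGATAA. The only TGTTTAC match, the FOXA letters present in 3.17% of windows, was in the Foxa1 window, which also lies inside the GENCODE gene model. No member window held CAAAGTCCA for HNF4 (0.384%). Base composition separated the members further. The Hhex and Onecut1 windows held 32 and 31 CG pairs, which 4.58% and 5.19% of windows reach, whereas the 2 Hnf4a windows held 3 and 4 pairs, beside a median of 6 over all windows. Because 3′ end counts do not show the start used, transcripts from the 2 Hnf4a starts could not be told apart.

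Summed marker genes set the Hepa cells apart from the other cells as a group, and depth was uneven. The authors clustered the cells on these same counts and named clusters by known marker genes, so contrasts with Hepa are descriptions. The 8 Hepa markers (Alb, Afp, Ttr, Apoa1, Apoa2, Krt8, Krt18 and Dlk1) all had UMIs and summed to 57846 and 42628 CPM, counts scaled to 1000000 UMIs, in the Hepa cells of libraries 1 and 2, against 140 CPM in EC, 199 CPM in HPSC and 272 CPM in Mk, the highest of the other cell types. Of the 6 cholangiocyte markers, 2 had UMIs in Hepa, 4 UMIs in all, with Krt19, Krt7, Spp1 and Cldn4 at 0. The 7 EC markers summed to 6 UMIs, the 4 HPSC markers to 17 and the 3 mesothelial markers to 0. The 8 stellate and mesenchymal markers summed to 70 UMIs, of which 54 were in 1 cell of library 1. The 4 adult globin genes were high, at 17616.9 and 47776.5 CPM in the Hepa cells of libraries 1 and 2. This was not particular to Hepa. Pooled over the libraries, they were at 34462 CPM in Hepa. In the other cell types apart from Eryb and EryP they ranged from 21123 CPM in HPSC to 36565 CPM in Mk. In Eryb they were at 495633 CPM, pooled over the libraries. Hepa cells held a median of 22346 UMIs, from 1007 to 64955. A total of 9 Hepa cells of library 1 and none of library 2 had fewer than 3600 UMIs. The smallest kept cell of any type held 504 UMIs in library 1 and 4387 in library 2. Of the kept barcodes, 31 occurred in both libraries, including 1 of the Hepa cells.

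Hnf4a, Foxa3, Prox1, Foxa2, Tbx3 and Foxa1 were read mostly in hepatoblasts, whereas Onecut1 was close to undetected and Hhex was read more in blood progenitors and endothelium than in hepatoblasts. The 8 genes gave 431 UMIs in Hepa, from 142 for Foxa3 to 1 for Onecut1. Because the Hepa cells were grouped from these same counts, the fold counts that follow describe the group and do not test it. The 6 genes named first were at least 5-fold higher in Hepa than in all other kept cells in both libraries, with at least 3 Hepa UMIs in each, a rule that 3.71% of the 27998 genes met (1040 genes). Against the highest of the other 8 cell types in place of their sum, Hnf4a and Foxa3 met the rule, as did 0.532% of genes (149 genes). In that comparison a cell type with 0 UMIs entered at 3 counts, which is 11.4 CPM in the EC of library 1, so that low genes could not meet it. The share of each gene's UMIs that lay in Hepa was 95.7% for Tbx3, 95.3% for Foxa3, 94.1% for Foxa1, 87.1% for Foxa2, 79.7% for Prox1 and 79.5% for Hnf4a, but 2.75% for Hhex.

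**Figure D1:**
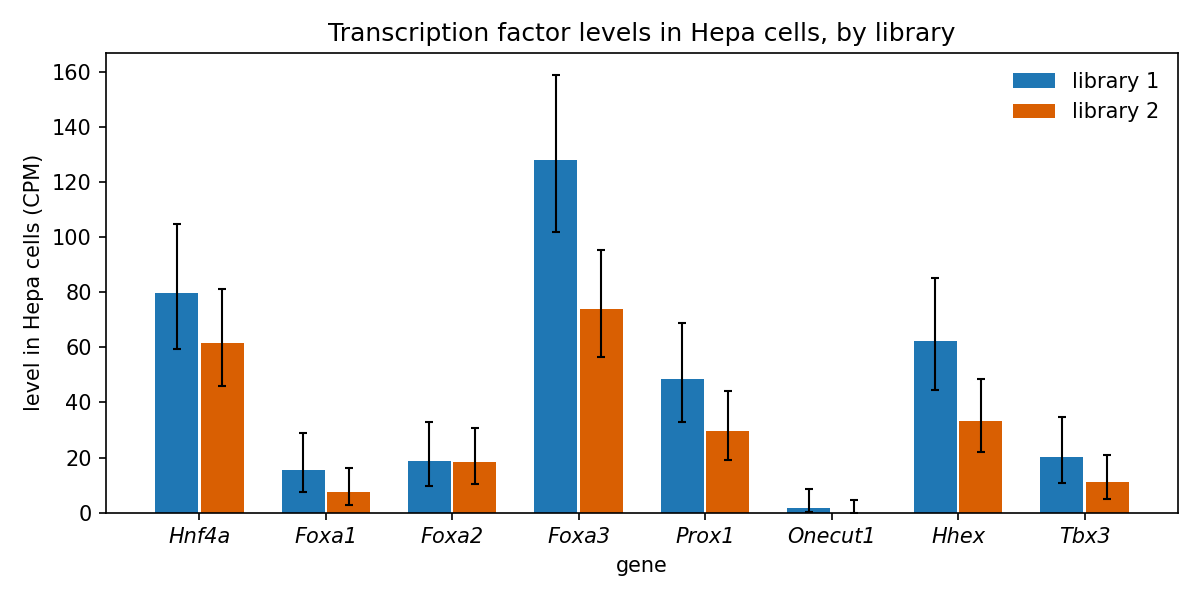
Level of each of the 8 genes in the Hepa cells (CPM, linear axis) in library 1 (33 cells) and library 2 (31 cells). Bars give UMIs summed over cells as CPM, and error bars are exact Poisson 95% intervals, which cover counting error only. Foxa3 and Hnf4a are highest in both libraries and Onecut1 lies at or near 0 in both.

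Hnf4a encodes an orphan nuclear receptor that directs hepatocyte differentiation (ENSMUSG00000017950, chr2:163506808-163572910, plus strand; all positions are of GENCODE vM21 on GRCm38). It had 51 UMIs in the Hepa cells of library 1 and 50 in those of library 2. These gave 79.7 CPM (95% confidence interval 59.3 to 105) and 61.7 CPM (45.8 to 81.4), a ratio of library 1 to library 2 of 1.29 (0.856 to 1.95). The libraries thus overlapped. At least 1 UMI was seen in 18 of 33 and 15 of 31 Hepa cells, that is in 51.6% of the 64 (exact binomial interval 38.7 to 64.2%), and a positive cell held up to 7. Beyond Hepa, 26 UMIs were spread over 10473 cells.

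Of those, 15 Hnf4a UMIs were in 14 of the 421 HPSC, 10 in library 1 and 5 in library 2, or 2.28 CPM (1.28 to 3.76). The Hepa level was 30.5 times that (17.7 to 56.5). Ery cells held 9 UMIs (0.243 CPM), EC 1 UMI and Eryb 1 UMI among 7432 cells. Foxa3, with more UMIs in Hepa than Hnf4a, had 0 UMIs in HPSC, which allows up to 0.456 CPM. Scaled by 9 hepatoblast product genes, the 10 listed below without Trf, RNA in the proportions of the Hepa cells would have given 0.269 Hnf4a UMIs in HPSC and 1.52 in Ery. Of the 14 positive HPSC, 3 also held a UMI of these product genes, beside 109 of the 349 HPSC with a Hhex UMI. Free RNA, in barcodes with 1 to 50 UMIs, held Hnf4a at 1.01 CPM (0.123 to 3.66) in library 1. In library 2 it was 1.53 CPM (0.316 to 4.47). The source of the Hnf4a UMIs in HPSC was not tested. The antisense gene Hnf4aos, which overlaps Hnf4a on the opposite strand, had 1 UMI in Hepa and 0 in HPSC.

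The 3 FOXA genes encode forkhead pioneer factors, which open closed chromatin at liver enhancers. Foxa3 (ENSMUSG00000040891, chr7:19013284-19023538, minus strand) was the highest of the 3 and of all 8 genes in Hepa. It had 82 UMIs in library 1 and 60 in library 2, at 128 CPM (102 to 159) and 74.1 CPM (56.5 to 95.4), with UMIs in 43 of 64 cells (67.2%, 54.3 to 78.4%). The level in library 1 was 1.73 times that in library 2 (1.22 to 2.45). Outside Hepa it had 7 UMIs, 3 in Eryb, 2 in Ery and 2 in Mo/KC, and none in EC or HPSC.

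Foxa2 (ENSMUSG00000037025, chr2:148042877-148046969, minus strand), which patterns the foregut endoderm, had 12 and 15 UMIs in the Hepa cells of libraries 1 and 2, or 18.7 CPM (9.68 to 32.7) and 18.5 CPM (10.4 to 30.5). It was seen in 20 of 64 cells (31.2%, 20.2 to 44.1%), 10 in each library. Foxa1 (ENSMUSG00000035451, chr12:57540628-57546916, minus strand), which acts redundantly with Foxa2 in liver specification, had 10 and 6 UMIs, or 15.6 CPM (7.49 to 28.7) and 7.41 CPM (2.72 to 16.1), in 12 cells (18.8%, 10.1 to 30.5%). Both were low everywhere else. Foxa2 had 4 UMIs outside Hepa, 3 of them in 2 HPSC, and Foxa1 had 1.

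The FOXA genes overlapped within cells. All 12 cells with Foxa1 and 19 of the 20 with Foxa2 also had Foxa3. All 3 genes were seen in 5 cells, Foxa2 with Foxa3 in 14, Foxa1 with Foxa3 in 7, Foxa3 alone in 17, Foxa2 alone in 1 and none in 20. No cell had Foxa1 without Foxa3. Foxa3 itself was seen in 43 of the 64 cells, and in all 32 of the deep cells described below. In those 32 cells Foxa1 or Foxa2 could only be seen together with Foxa3, so these counts describe detection.

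Prox1 encodes a homeodomain factor that hepatoblasts need to leave the liver bud and that also specifies lymphatic endothelium (ENSMUSG00000010175, chr1:190118035-190170714, minus strand). In Hepa it had 31 UMIs in library 1 and 24 in library 2, at 48.4 CPM (32.9 to 68.7) and 29.6 CPM (19.0 to 44.1). It was seen in 26 of 64 cells (40.6%, 28.5 to 53.6%), and 4 cells held 5 UMIs each. Among EC, 2 of 46 cells had 1 UMI each, both in library 2, or 2.41 CPM (0.292 to 8.72). Both cells also held a UMI of the hepatoblast product genes, beside 15 of the 32 EC with a Hhex UMI (9 of 20 in library 2). RNA in the proportions of the Hepa cells would have given 0.0388 Prox1 UMIs in EC. The source of these 2 UMIs was not tested. Prox1os, read from the opposite strand across the Prox1 start, had 24 UMIs in Hepa and 1 in EC.

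Tbx3 encodes a T-box repressor that keeps hepatoblasts growing (ENSMUSG00000018604, chr5:119670669-119684724, plus strand). It had 13 and 9 UMIs in Hepa, or 20.3 CPM (10.8 to 34.7) and 11.1 CPM (5.08 to 21.1), in 17 of 64 cells (26.6%, 16.3 to 39.1%). The only other UMI was in Mk. Its antisense neighbour Tbx3os1 had 15 UMIs in Hepa and 0 in EC and HPSC.

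Onecut1, also known as HNF6, encodes a cut homeodomain factor of hepatoblasts and bile ducts (ENSMUSG00000043013, chr9:74861921-74891781, plus strand). It had 1 UMI in Hepa, in library 1, and 0 in every other cell type, so that its level was 0.690 CPM (0.0175 to 3.84) in the 64 cells. In library 2 it was seen in 0 of 31 cells, which at 3 counts limits the share holding a UMI to 9.68%, not the share that express it. Its relative Onecut2 had 49 UMIs in library 1 and 42 in library 2, at 76.5 CPM (56.6 to 101) and 51.9 CPM (37.4 to 70.1), in 32 of 64 Hepa cells, and 0 UMIs in EC. Onecut3 had 5 and 4 UMIs in Hepa and 0 elsewhere. The long noncoding gene Gm20649 runs over Onecut1 on the same strand, and its last exon covers 2171 of the 2476 bases of the last Onecut1 exon (chr9:74889306-74891781). Reads that fall on exons of 2 genes are not counted by the software used, and Gm20649 had 0 UMIs in Hepa, HPSC and EC. The part of this overlap in the Onecut1 count was not tested.

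Hhex encodes a homeodomain repressor needed for the liver bud, for early endothelium and for blood progenitors (ENSMUSG00000024986, chr19:37434810-37440731, plus strand). It was highest in HPSC, where 514 UMIs in library 1 and 449 in library 2 gave 149 CPM (136 to 162) and 144 CPM (131 to 158). EC followed with 38 and 61 UMIs, or 145 CPM (103 to 199) and 108 CPM (82.3 to 138). In Hepa, 40 and 27 UMIs gave 62.5 CPM (44.6 to 85.1) and 33.3 CPM (21.97 to 48.5). Hepatoblasts lay below HPSC and EC in both libraries, and their interval did not meet that of HPSC or EC in either.

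Against all other kept cells, which are mostly erythroblasts, Hhex was 2.21 times as high in Hepa (1.71 to 2.82). By cell type and pooled over the libraries, it was 3.17 times as high in HPSC as in Hepa (2.47 to 4.13) and 2.59 times as high in EC as in Hepa (1.88 to 3.58). The Hepa-to-EC ratio was 0.431 (0.269 to 0.690) in library 1 and 0.310 (0.189 to 0.495) in library 2. When the CPM of each cell was averaged in place of summing UMIs, the Hepa-to-EC ratio was 0.908. With only the cells of at least 3600 UMIs, a setting that was not among those planned, this average gave 0.343. Among the shallow Hepa cells that this left out, 1 held 4 Hhex UMIs of 1185 and 1 held 2 of 1038. A single EC of library 2 held all 61 stellate and mesenchymal marker UMIs of the EC and no Hhex UMI, and without it the EC level in library 2 was 115 CPM.

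Over the 9 cell types, the Hhex level fell in the order HPSC (146 CPM), EC (119), G (114), Mo/KC (72.2), Hepa (46.2), Mk (45.4), Ery (16.5), Eryb (1.07) and EryP (0.520). Several neighbours in this order did not differ beyond counting error. The ratio of HPSC to EC was 1.23 (0.996 to 1.52), of EC to G 1.05 (0.835 to 1.31), of Hepa to Mk 1.02 (0.725 to 1.42) and of Eryb to EryP 2.06 (0.357 to 82.6). The remaining steps were larger than it, namely G to Mo/KC with 1.58 (1.28 to 1.96), Mo/KC to Hepa with 1.56 (1.15 to 2.15), Mk to Ery with 2.74 (2.15 to 3.46) and Ery to Eryb with 15.4 (11.9 to 20.3). Within single libraries, the ratio of HPSC to EC was 1.34 (1.02 to 1.77) in library 2, and in library 1 the intervals of G to Mo/KC (1.34, 0.9997 to 1.82) and of Mo/KC to Hepa (1.39, 0.916 to 2.13) held 1. The ratio of Ery to Eryb was 9.76 (7.06 to 13.8) in library 1 and 26.1 (16.9 to 42.3) in library 2, with intervals that did not meet. These CPM are over all UMIs, globin included. Adult globin was at 360688 and 587895 CPM in the Eryb of libraries 1 and 2. In Ery it was at 20920 and 47467 CPM. The part of globin in the step from Ery to Eryb, and in its difference between the libraries, was not tested. EC markers summed to 127 CPM in Mk, 42.8 CPM in G and 42.8 CPM in Mo/KC. In Mk the 8 stellate and mesenchymal markers also summed to 290.3 CPM, the highest of the 9 cell types, the 8 Hepa markers to 272 CPM and the 3 mesothelial markers to 16.8 CPM. The part of these markers in the Hhex level of Mk, G and Mo/KC was not tested.

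**Figure D2:**
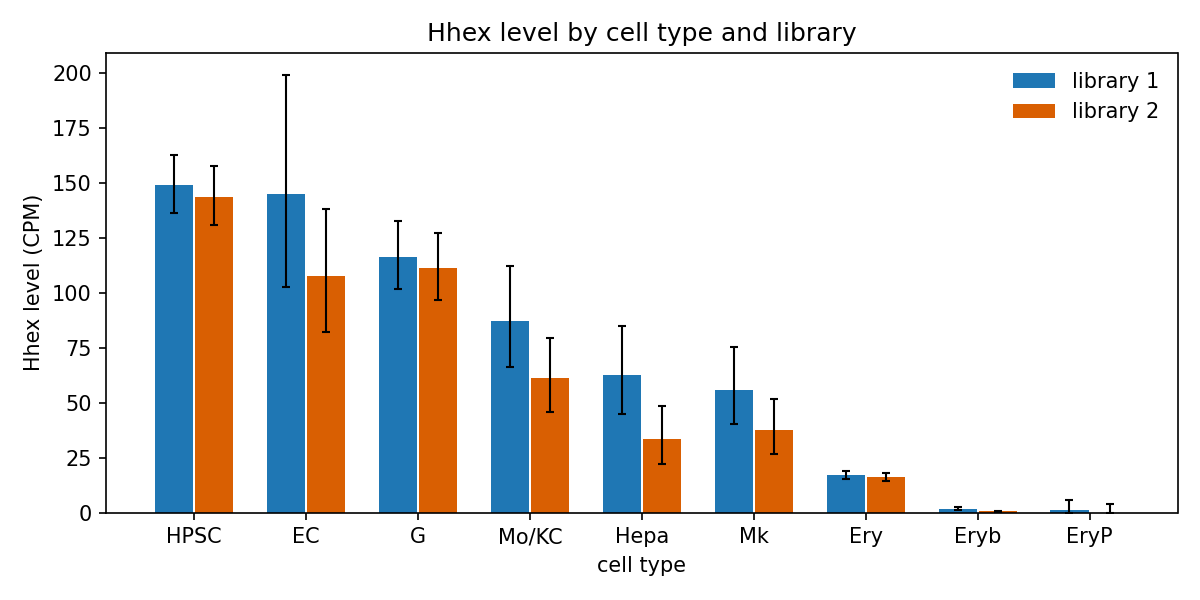
Hhex level (CPM, linear axis) in the 9 cell types of the deposited table, ordered by the pooled level, in library 1 and library 2. Bars give UMIs summed over cells as CPM, and error bars are exact Poisson 95% intervals. HPSC, EC and G lie above Hepa in both libraries, and Eryb and EryP lie near 0.

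Along the erythroid path the fall of Hhex lay within the progenitors. The deposited clusters Ery 1 and Ery 2, which make up the Ery cells, held 582 and 31 Hhex UMIs, at 30.4 CPM (28.0 to 32.9) and 1.73 CPM (1.18 to 2.46). In the clusters Ery 3 to Ery 6, which make up the Eryb cells, the pooled level was between 0.683 and 1.18 CPM. From Ery 1 to Ery 2 the level went from 31.8 to 0.871 CPM in library 1 and from 28.9 to 2.64 CPM in library 2. The libraries differed after that, in CPM that include globin UMIs, whose part was not tested. In library 1, Ery 4 with 2.26 CPM (1.34 to 3.58) and Ery 6 with 2.11 CPM (1.09 to 3.68) lay above Ery 2, with intervals that met its own (0.376 to 1.72), whereas in library 2 they were at 0.433 CPM (0.141 to 1.01) and 0.606 CPM (0.222 to 1.32).

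Shares of positive cells in HPSC, EC and Hepa followed the order of the levels. Hhex was seen in 82.9% of HPSC (79.0 to 86.4%), 69.6% of EC (54.2 to 82.3%) and 51.6% of Hepa (38.7 to 64.2%). In Eryb it was seen in 0.848% of cells, at a median depth of 7287 UMIs against 22346 in Hepa. With cells thinned to 3600 UMIs, the shares were 40.6% in HPSC, 34.9% in EC, 15.8% in Hepa and 0.448% in Eryb. Shallower cells were left out, namely 2 HPSC, 1 EC, 9 Hepa and 455 Eryb. Free RNA, measured in barcodes with 1 to 50 UMIs, held Hhex at 21.8 CPM in the first library and 20.4 CPM in the second. The other 7 genes together had 6 and 8 UMIs in those barcodes.

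The 3 genes whose pattern was most like that of Hhex over 18 values, 9 cell types in 2 libraries, were Sptssa (Pearson correlation of log2 (CPM + 1) 0.99), Eml4 (0.98) and Foxn3 (0.98), among 11341 genes with at least 50 UMIs outside Hepa. The 18 values share cells and depth, so the correlations are descriptions. In all 3 the HPSC level was the highest, for example 269 CPM for Sptssa against 183 CPM in EC and 83.4 CPM in Hepa. The other 7 genes had too few UMIs outside Hepa for such a comparison.

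Within the 64 Hepa cells the number of the 8 genes detected ranged from 0 to 8, with a median of 3. It was 0 in 14 cells, 4 in 11 cells and 8 in 1 cell. The cells also differed in the share of UMIs from 10 product genes (Alb, Afp, Ttr, Apoa1, Apoa2, Apob, Apoh, Trf, Ahsg and Fgb), which encode plasma proteins made by the liver. In 15 cells, 3 of library 1 and 12 of library 2, this share was under 2% (0.168 to 1.45%), and in 49 it was 2.58 to 17.0%. The highest share outside Hepa was 0.354%, in an Ery cell, so it did not set every single Hepa cell apart. The 2% limit was set after the values had been seen, and the cells next to it held 1.45% with 1 of the 8 genes and 2.58% with 2.

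**Figure D3:**
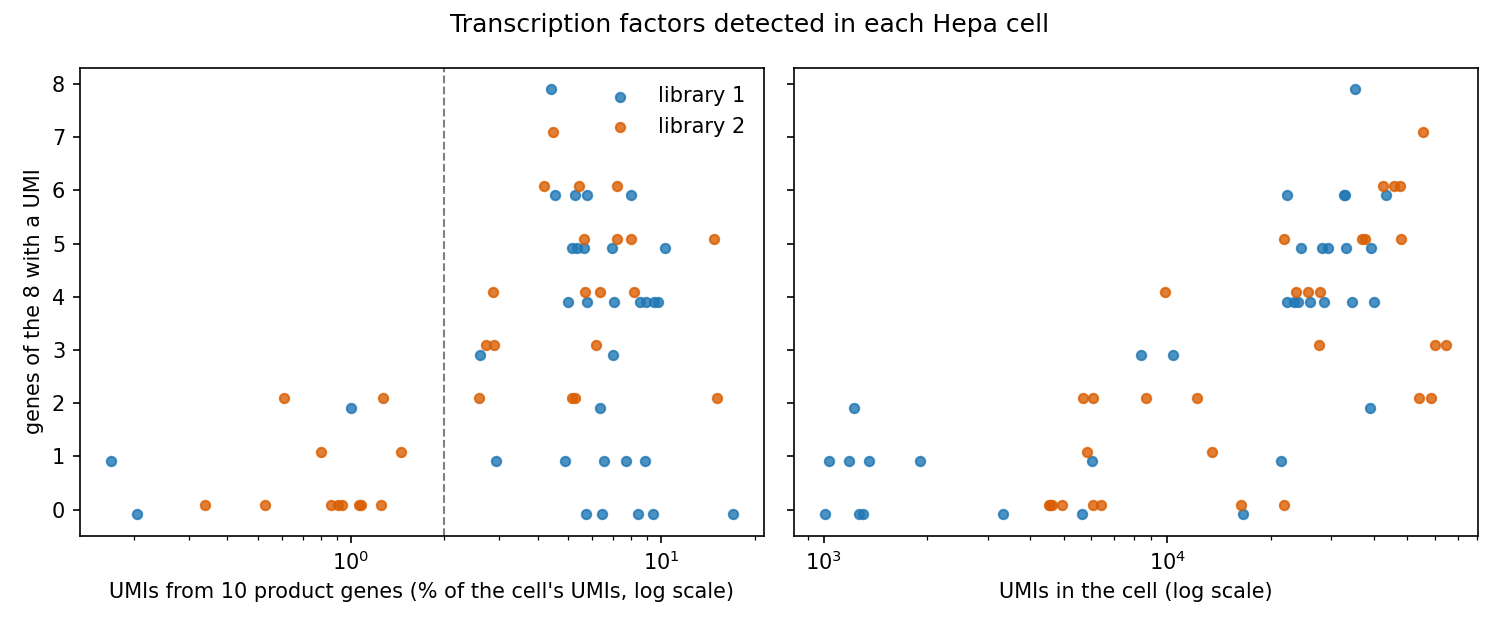
Number of the 8 genes with at least 1 UMI in each of the 64 Hepa cells against the share of UMIs from the 10 product genes (left, log axis, dashed line at 2%) and against the UMIs in the cell (right, log axis). Each point is 1 cell, coloured by library and shifted slightly up or down by library. Left of the dashed line no cell shows more than 2 of the genes, and right of it the median is 4.

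The 15 cells with few product UMIs had a median of 0 of the 8 genes and at most 2, and the 49 others a median of 4. Foxa3 had 3 UMIs in the 15 cells, at 12.9 CPM (2.67 to 37.8), against 114 CPM (95.9 to 135) in the 49. Hnf4a had 2 UMIs, at 8.63 CPM (1.04 to 31.2), against 81.3 CPM (66.0 to 98.9). Hhex had 4 UMIs, at 17.3 CPM (4.70 to 44.2), against 51.7 CPM (39.7 to 66.2). Tbx3 had 1 UMI, at 4.31 CPM (0.109 to 24.0), against 17.2 CPM (10.7 to 26.3). For Hhex and Tbx3 the intervals met. Prox1, Foxa1, Foxa2 and Onecut1 had none, which allows up to 12.9 CPM. In the 49 cells they were at 45.1, 13.1, 22.2 and 0.821 CPM, so a difference could not be read for Foxa1 and Onecut1. Adult globin made up a median of 16.0% of UMIs in the 15 cells and 1.04% in the 49, and median depth was 12198 and 25747 UMIs. The part of globin RNA and of depth in this split was not tested. Without the 15 cells, the ratio of library 1 to library 2 was 1.67 (1.18 to 2.39) for Foxa3 and 1.77 (1.04 to 3.05) for Hhex, beside 1.87 (1.12 to 3.18) for Hhex in all Hepa cells.

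In the 32 cells with at least 2% product UMIs and at least 20000 UMIs, limits that were also set after the values had been seen, detection was more complete. Foxa3 was seen in all 32, Hnf4a in 28, Prox1 in 25, Hhex in 22, Foxa2 in 19, Tbx3 in 16, Foxa1 in 10 and Onecut1 in 1. Each of these cells showed between 2 and 8 of the genes, with a median of 5. The 17 cells with as large a product share but fewer UMIs, a median of 3332, showed a median of 1. Since Foxa3 was in all 32 cells, it was seen together with Hnf4a in all 28 that had Hnf4a. Foxa2 and Prox1 were seen together in 17 of the 32 cells, and Hhex and Hnf4a in 18.

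Relatives of the 8 genes were read in part in other cells. Of the 5 paralogues listed (Hnf4g, Onecut2, Onecut3, Prox2 and Tbx2), Onecut2 and Onecut3 were at least 5-fold higher in Hepa in both libraries. Hnf4g had 2 UMIs in Hepa and Prox2 and Tbx2 had 0, which allows up to 2.07 CPM. Tbx2 was instead seen in 8 of 46 EC, with 3 and 12 UMIs in libraries 1 and 2. Prox2 was seen in 39 Ery, 55 Eryb and 6 HPSC cells with 1 UMI each, and in 1 Mk and 1 Mo/KC cell. Its levels were 1.05 CPM in Ery, 0.921 CPM in Eryb and 0.913 CPM in HPSC. These lie below the limit for Hepa, so Hepa could not be placed below them.

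Of 18 other liver transcription factors, 8 met the same 5-fold rule, beside the 3.71% of all genes, and 10 did not. The rule sets Hepa against all other kept cells, which are mostly erythroblasts. A gene could therefore meet it and still be higher in another cell type, as Nr2f2 was in EC. Those that met it were Cebpa, Gata6, Nr5a2, Nr2f2, Nr2f6, Creb3l3, Atf5 and Klf15, and all 10 product genes met it as well. Atf5, a stress-responsive bZIP factor, was highest of the 18 in Hepa with 103 and 97 UMIs in the libraries (138 CPM pooled, 119 to 158). Cebpa, which drives hepatocyte maturation, had 34 and 33 UMIs, and Creb3l3, a liver factor of lipid metabolism, 59 and 37. Nr1h4, the bile acid receptor, had 0 UMIs, and Nr0b2, its target, had 1.

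Some of these factors were higher in endothelium. Gata4, a zinc finger factor known from liver sinusoidal endothelium, had 28 and 52 UMIs in EC and 1 and 1 in Hepa, a pooled ratio of EC to Hepa of 70.0 (18.8 to 588). Gata6 lay the other way, with 38 UMIs in Hepa and 6 in EC. Nr2f2, a nuclear receptor of venous endothelium, had 118 UMIs in EC and 20 in Hepa, a ratio of 10.3 (6.39 to 17.5). The bile duct factor Sox9 had 3 UMIs in Hepa.

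**Figure D4:**
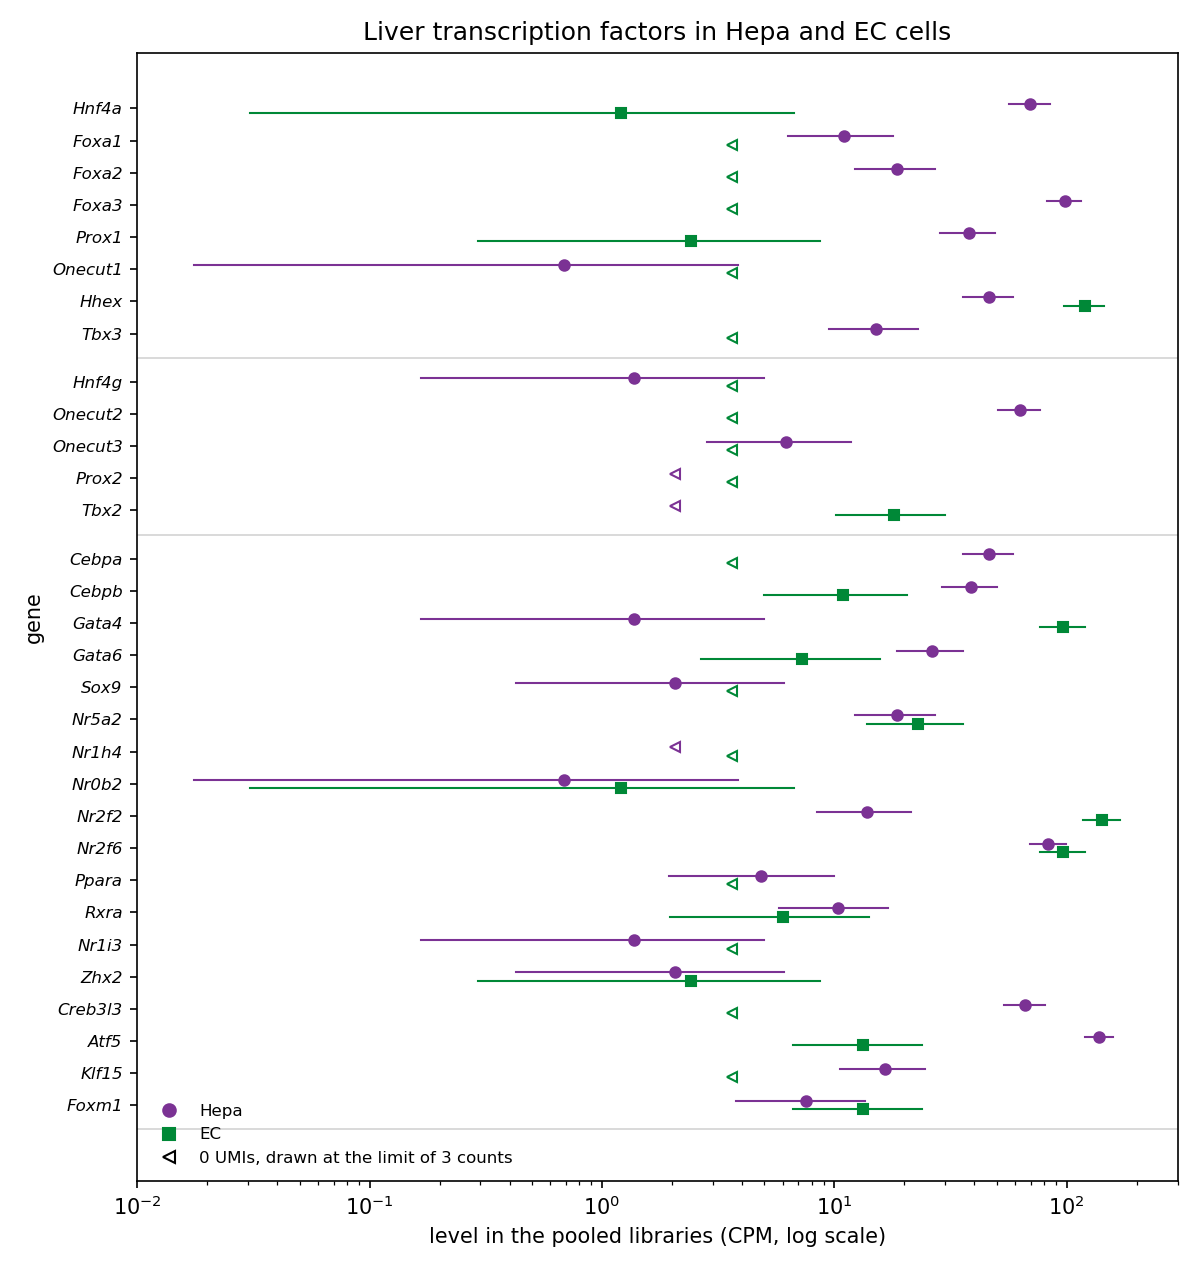
Level in Hepa (circles) and EC (squares) of the 8 genes, their 5 paralogues and 18 other liver transcription factors, pooled over the libraries (CPM, log axis). Lines are exact Poisson 95% intervals, cut at the left edge where they reach below it, and open triangles mark 0 UMIs, drawn at the limit that 3 counts give. Hhex, Tbx2, Gata4 and Nr2f2 lie higher in EC, with intervals that do not meet those of Hepa, and Onecut2 but not Onecut1 lies among the higher genes in Hepa.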

How the data were processed

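The authors deposited raw UMI counts per gene and barcode for 2 technical replicate libraries of 1 liver, with names, clusters and types of the kept cells. The submitters' processing notes name Cell Ranger 2.1.1, bcl2fastq 2, Seurat 3.2.0 and mm10, whereas the header of the library 1 matrix names version 3.0.0. Kept cells held 51969226 and 62738015 UMIs. From the counts, CPM and shares of positive cells were computed per cell type and library (Python 3.11.15 with numpy 2.4.6, pandas 2.3.3 and scipy 1.17.1; figures with matplotlib 3.10.9). Exact Poisson, Clopper-Pearson and conditional binomial intervals (95%) cover counting error only, since cells are not replicates. They were run on simulated counts drawn from the distributions that they assume. Such a run checks the calculation and says nothing of the spread between cells. A value of 0 was limited at 3 counts. Thinned shares are exact means over draws of 3600 UMIs. Sorting removed doublets before encapsulation, pairs caught later were kept, and no caller was run. The 5-fold rule was applied to all genes. The genes and lists were chosen with earlier results of these data known. Genes named are the 8 genes, those of the lists and, for a gene with at least 50 UMIs outside Hepa, the 3 most alike. Alternatives were single libraries, other cell filters, thinning, scales and folds. Results for some genes of the lists are not reported here.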

Additional observations from a re-analysis of the deposited data

Results flagged for a closer look

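Signal of some of the 8 genes, mostly Foxa3, appeared in barcodes that the deposited table does not hold as cells. In library 2, 51 of 3311 uncalled barcodes with at least 1000 UMIs and 200 genes had a product gene share of at least 0.721%, a limit set from the Hepa median of that library (2.88%). They held 24 UMIs of the 8 genes, namely 15 of Foxa3, 5 of Hhex, 2 of Prox1, 1 of Foxa2 and 1 of Onecut1. Hnf4a, Foxa1 and Tbx3 had 0. Without Hhex there were 19 UMIs, or 163 CPM (98.4 to 255), against 10 UMIs, or 1.51 CPM, in the 3260 other uncalled barcodes of that size. These 51 barcodes had a median of 2188 UMIs, a median product gene share of 2.72% and a median adult globin share of 14.9%. In library 1, 0 of 168 such barcodes reached the corresponding share, which was higher there, at 1.59%. At a share of 0.636%, below the limit of library 2, there were also 0 in library 1. The 51 barcodes held at most 3986 UMIs, and the smallest kept cell held 504 UMIs in library 1 and 4387 in library 2. Barcodes of their size were thus among the kept cells of library 1 only. The part of this size limit in the contrast between the libraries was not tested.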

How the results depend on the processing

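No paired analysis was possible because no test was made and all cells come from 1 group. Depth limits the shares most: their median over the 8 genes was 35.9% of Hepa cells, and 7.45% after thinning to 3600 UMIs, 16.1% after thinning to 7200 UMIs and 14.1% where 2 UMIs were asked for, and the median number of genes per Hepa cell went from 3 to 0.950, 1.93 and 1 in the same order. The 6 genes at least 5-fold higher became 2 against the highest other cell type. Averaging CPM over cells moved the Hhex ratio of Hepa to EC from 0.387 to 0.908, and moved 2 of the 8 Hepa levels above and 1 below their intervals. Free RNA of the 8 genes was 24.7 CPM in barcodes with 1 to 50 UMIs and 18.4 CPM in those with 1 to 10. The 51 uncalled barcodes became 83 at a product gene share of at least 0.288% and 32 at one of at least 1.44%. With 1 library left out, the number of genes highest in Hepa ranged from 6 to 7, since Onecut1 had 1 UMI in library 1 and 0 in library 2, the median share ranged from 35.5 to 36.4%, the median number of genes per cell from 2 to 4, the Hhex level from 108 to 145 CPM in EC and from 144 to 149 CPM in HPSC, and the Hhex ratio from 0.310 to 0.431 for Hepa to EC and from 0.749 to 0.973 for EC to HPSC. Without library 1, 3 of the 8 Hepa levels fell below their intervals (Foxa3, Hhex and Onecut1). Without library 2, 2 rose above them (Foxa3 and Hhex). Leaving out the 15 Hepa cells with few product UMIs, chosen after the data had been seen, kept all 8 levels within their intervals. It moved 1 of the 8 shares, that of Foxa3, from 67.2 to 83.7%, above its interval.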
